A study of Mus musculus with 7 samples.

Results

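The genes described here are 8 linked to the uptake, esterification, export and sensing of sterol, and they were taken by symbol from the 38293 genes of the deposited count table. They are the sterol importers Npc1l1 and Scarb1, the sterol-esterifying enzyme Soat2, the exporters Abcg5, Abcg8, Abca1 and Abcg1, and Nr1h3, the gene of the liver X receptor LXRα. Each symbol matched 1 row of the table, and all 8 passed the filter on low counts that left 14869 genes for testing. RNA came from scrapings of the ileum, the distal end of the small intestine, of male C57BL/6NRJ mice, 8 weeks old, which were housed singly and had spent 1 week of acclimatization on the control diet. For the next 2 weeks, 4 mice received the normal cys diet, with 0.3% of added L-cystine, and 3 received the low cys diet, in which 0.11% alanine took its place. Both diets were purified, low in calcium and high in fat (40% of energy), and all mice were fasted before sacrifice. The muscle layer was left behind in scraping, and the epithelium and the underlying lamina propria were collected, so each value is an average over all of these cells.

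Cholesterol and plant sterols enter the enterocyte from the gut lumen through NPC1L1. Inside the cell, cholesterol is esterified by SOAT2 for packing into chylomicrons, or is returned to the lumen by the ABCG5-ABCG8 heterodimer at the apical membrane, or leaves across the basolateral membrane through ABCA1 to form HDL. Oxysterols bind the liver X receptors, which with RXR switch on the genes of the exporters, so a sterol-loaded cell raises its own efflux.

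Abcg5 and Abcg8 lie head to head on chromosome 17 and are transcribed away from each other, so the whole stretch between their start sites can be shown. RefSeq (GRCm38.p6) promoter entries were found for Npc1l1, Abca1, Abcg5, Abcg8 and Nr1h3, which were 5 of the 8 genes. They were not found for Scarb1, Soat2 and Abcg1. Printed below are the 109 bases between Abcg5 and Abcg8 (chr17:84683012-84683120, plus strand, the strand of Abcg8), because both genes start at its ends, and the 150 bases before the start of Npc1l1 (chr11:6230246-6230395, minus strand) and of Abca1 (chr4:53159896-53160045, minus strand), the importer and the LXR-driven exporter with the lowest estimates described below. All are written 5′ to 3′, and capitals mark the fixed letters of a motif match on either strand.
Abcg5-Abcg8: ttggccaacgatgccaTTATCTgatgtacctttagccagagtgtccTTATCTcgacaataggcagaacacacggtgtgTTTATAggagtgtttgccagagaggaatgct
Npc1l1: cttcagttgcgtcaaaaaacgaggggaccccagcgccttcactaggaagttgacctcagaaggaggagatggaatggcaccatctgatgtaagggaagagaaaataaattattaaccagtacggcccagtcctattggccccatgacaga
Abca1: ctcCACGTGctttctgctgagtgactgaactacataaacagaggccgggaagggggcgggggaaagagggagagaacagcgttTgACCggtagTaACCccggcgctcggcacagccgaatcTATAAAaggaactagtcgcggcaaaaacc
In all, 6 motifs were searched on both strands: the GATA motif AGATAA, a relaxed LXR direct repeat of the DR4 type (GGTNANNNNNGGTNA), the HNF4 motif CAAAGTCCA, the LRH-1 motif CAAGGTCA, the E-box CACGTG and the TATA box TATAAA. The Abcg5-Abcg8 stretch held 2 matches to the GATA motif and 1 to the TATA box, all on the strand of Abcg5. The Abca1 stretch held 1 DR4, 1 E-box and 1 TATA box, and no 2 matches overlapped. The Npc1l1 stretch held 0 matches. Among 32851 RefSeq promoter windows of 300 bases, 11.2% held the GATA motif, 0.718% the DR4, 0.475% the HNF4 motif, 1.56% the LRH-1 motif, 7.15% the E-box and 13.6% the TATA box. In windows of the same 300 bases, those at the shared start region held 3 GATA matches and 1 TATA box for Abcg5 and likewise for Abcg8, that of Abca1 held 1 DR4, 1 E-box and 1 TATA box, and those of Npc1l1 and Nr1h3 held 0 matches. These matches describe letters only and do not show that a factor binds.

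Library totals ran from 19712355 to 22412703 counts in the normal cys group and from 14888760 to 21942518 in the low cys group. Across all genes, edgeR's quasi-likelihood test called 0 of 14869 genes at a Benjamini-Hochberg adjusted p under 0.05 and had 817 at an unadjusted p under 0.05, while DESeq2 called 16 genes. The markers of the distal ileum (Slc10a2, Fabp6, Fgf15, Slc51a, Slc51b and Cubn) were detected in every library, with a summed level of 6423 to 11648 CPM in normal cys and 5205 to 8930 CPM in low cys libraries. CPM, the normalised read count used throughout, is the count scaled to the TMM-normalised library size. The libraries are named by their labels: X17SI4, X32SI4, SI9 and X1SI4 for normal cys, and X23SI4, X26SI4 and X10SI4 for low cys. Each came from 1 mouse.

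Each of the 8 sterol genes had a lower estimate in the low cys mice, and none passed the test across all genes. Npc1l1, the gate of sterol absorption, was at 0.618 of its normal cys level, and Abca1, Abcg5 and Abcg8 were at 0.599, 0.634 and 0.673 of theirs. Soat2 stood at 0.758, Nr1h3 at 0.865, Abcg1 at 0.834 and Scarb1 at 0.971. In edgeR 0 of 8 reached an adjusted p under 0.05 (background 0% of genes tested), and the adjusted p-values ran from 0.794 to 0.980. At an unadjusted p under 0.05 in the lower direction there were 2 of 8, Npc1l1 and Abcg5, against 2.83% of all genes tested. The median log2 fold change of the 8 genes was -0.49, and that of all genes tested was 0.01, with 48.8% of all estimates below 0. In a bulk sample such as these scrapings, fewer cells of a type and less RNA per cell cannot be told apart.

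**Figure D1:**
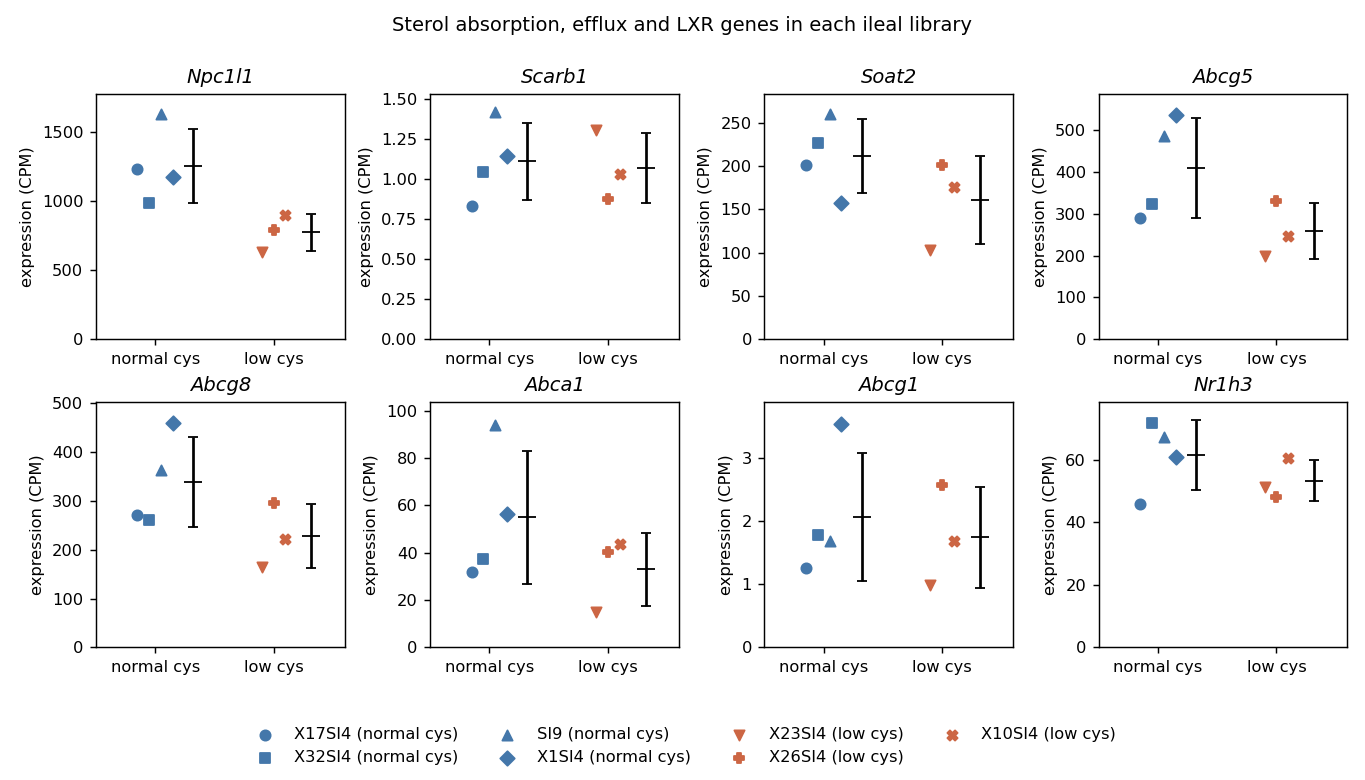
Expression (CPM, vertical axes from 0) of each of the 8 genes in each library, by diet. Each symbol is 1 mouse, and the bar beside each group is the mean with its SD (n = 4 normal cys, n = 3 low cys); the Npc1l1 points of the groups do not overlap (990 to 1630 against 633 to 901 CPM), while those of the other 7 genes do.

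Npc1l1 encodes the transporter that takes up sterol from the lumen and is the target of ezetimibe. It lies on chromosome 11 of GRCm38 from 6211013 to 6230143, on the minus strand. Its expression in normal cys libraries was 1232 CPM in X17SI4, 990 in X32SI4, 1630 in SI9 and 1175 in X1SI4. In low cys libraries it was 633 CPM in X23SI4, 795 in X26SI4 and 901 in X10SI4. All 3 low cys libraries lay below all 4 normal cys libraries, and SI9 stood highest. Npc1l1 was the only 1 of the 8 genes separated in this way, a pattern that 3.51% of all genes tested showed in the lower direction. The group levels were 1257 ± 269 CPM (SD, n = 4) and 776 ± 135 CPM (SD, n = 3), and the log2 fold change was -0.70 (standard error 0.209, 95% interval -1.17 to -0.22). Its unadjusted edgeR p was 0.00863, which ranked 96 among the genes tested, and its adjusted p was 0.794 (Benjamini-Hochberg). With DESeq2 the log2 fold change was -0.71 and the adjusted p 0.441. Leaving out 1 library at a time gave log2 fold changes from -0.82 to -0.55 and unadjusted p-values of at most 0.0407, the latter without X23SI4.

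Scarb1 encodes the scavenger receptor SR-BI, which binds HDL and also mediates sterol exchange at cell surfaces. It was close to the limit of detection, with 14 to 32 counts per library. The levels were 0.836, 1.04, 1.42 and 1.15 CPM in X17SI4, X32SI4, SI9 and X1SI4, and 1.31, 0.875 and 1.03 CPM in X23SI4, X26SI4 and X10SI4. The groups overlapped over nearly their whole range. The log2 fold change was -0.04 (standard error 0.341, 95% interval -0.81 to 0.73), and its sign changed with the scaling and with the library left out, so no direction can be given. Differences inside that interval were not excluded by these libraries.

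Soat2 encodes the enzyme that esterifies absorbed cholesterol in enterocytes. It lies on chromosome 15 from 102150526 to 102163474 on the plus strand. Soat2 was at 202, 226, 260 and 157 CPM in X17SI4, X32SI4, SI9 and X1SI4 on the normal cys diet. On the low cys diet it was at 103 CPM in X23SI4, 202 in X26SI4 and 176 in X10SI4. X23SI4 stood below all other libraries, and the remaining low cys libraries lay within the normal cys range. The log2 fold change was -0.40 (standard error 0.247, 95% interval -0.96 to 0.16) with an edgeR adjusted p of 0.794, and it was -0.15 without X23SI4. The related enzyme gene Soat1, which acts in most other cell types, was expressed at 4.91 ± 1.29 CPM (SD, n = 4) and 5.37 ± 0.906 CPM (SD, n = 3). Per kilobase of exon, Soat2 exceeded Soat1 96.1 ± 24.9 times (SD, n = 4) in normal cys and 67.0 ± 27.0 times (SD, n = 3) in low cys libraries, with overlapping ranges of 69.4 to 128 and 36.2 to 86.6.

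Abcg5 and Abcg8 encode the subunits of the heterodimer that pumps plant sterols and cholesterol back into the lumen, and loss of either gene causes sitosterolaemia. Abcg5 runs on the minus strand of chromosome 17 from 84658234 to 84683011, and Abcg8 on the plus strand from 84676302 to 84700333, the latter including a second upstream start that reaches into Abcg5. The exons of the 2 genes share 82 bases on opposite strands, 3.02% of the Abcg5 and 2.19% of the Abcg8 exon length, so reads there are uncertain where strand was not used in counting. Abcg5 was at 291 CPM in X17SI4, 324 in X32SI4, 485 in SI9 and 537 in X1SI4, against 199 in X23SI4, 332 in X26SI4 and 248 in X10SI4. Abcg8 was at 272 CPM in X17SI4, 261 in X32SI4, 363 in SI9 and 460 in X1SI4, against 165 in X23SI4, 296 in X26SI4 and 223 in X10SI4. For both genes SI9 and X1SI4 were highest and X23SI4 was lowest, and X26SI4 of the low cys group lay above X17SI4 and X32SI4 of the normal cys group, so the groups overlapped. The log2 fold change of Abcg5 was -0.66 (standard error 0.261, 95% interval -1.25 to -0.07), with an unadjusted edgeR p of 0.0326 and an adjusted p of 0.794. For Abcg8 it was -0.57 (standard error 0.255, 95% interval -1.15 to 0.01), with an unadjusted edgeR p of 0.0518 and an adjusted p of 0.794. Without X23SI4 these estimates were -0.49 and -0.38, with unadjusted p-values of 0.123 and 0.189 in edgeR.

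Both subunit genes varied together from mouse to mouse. Over the 7 libraries, the log2 CPM of Abcg5 and Abcg8 had a Pearson r of 0.977 (exact permutation test over all pairings of the 7 libraries, two-sided, p = 0.000595) and a Spearman rho of 0.964 (exact permutation, p = 0.00278). This was the only pair tested, so no adjustment applied. Without X1SI4 and X23SI4, the libraries farthest from the median of Abcg5, r was 0.958, and with the mean of each diet group removed it was 0.961. Within 1 diet group there were too few libraries for an r of its own. The Abcg5 to Abcg8 ratio per kilobase of exon was 1.66 ± 0.158 (SD, n = 4) in normal cys and 1.58 ± 0.0687 (SD, n = 3) in low cys libraries, and the ranges of 1.48 to 1.85 and 1.54 to 1.66 overlapped. Among all genes tested, Abcg8 ranked 21 of 14868 by its r with Abcg5, and 442 genes had an r above 0.9 with Abcg5, so the pair was close but not singular in these libraries.

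**Figure D2:**
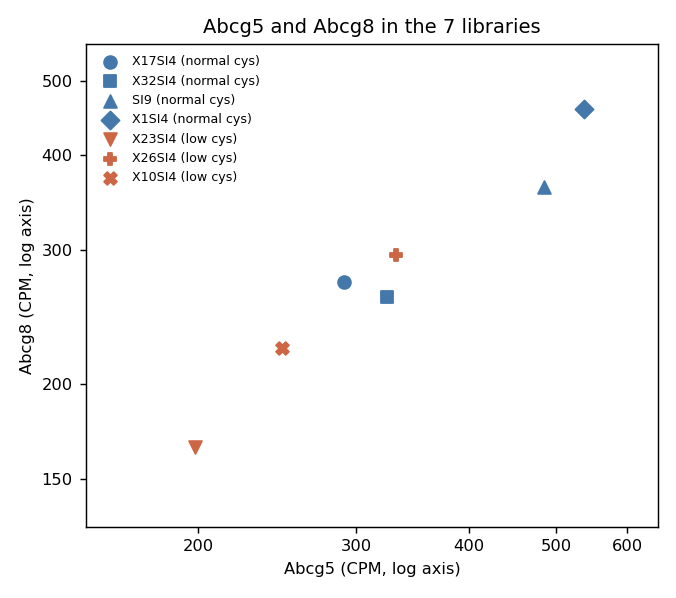
Abcg8 against Abcg5, both in CPM on log axes, with 1 symbol for each of the 7 libraries and colours for the diets. The points run together from X23SI4 (199 and 165 CPM) to X1SI4 (537 and 460 CPM), with r = 0.977 on the log2 scale.

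Abca1 encodes the basolateral exporter that loads apolipoprotein A-I with cholesterol and is a classical LXR target. It lies on the minus strand of chromosome 4 from 53030787 to 53159895. Abca1 was at 31.8 CPM in X17SI4, 37.4 in X32SI4, 94.0 in SI9 and 56.5 in X1SI4, against 15.1 in X23SI4, 40.3 in X26SI4 and 43.5 in X10SI4. The highest and the lowest library differed 6.21-fold, the widest span of the 8 genes, and X26SI4 and X10SI4 lay above X17SI4 and X32SI4. The group levels were 54.9 ± 28.1 CPM (SD, n = 4) and 32.98 ± 15.5 CPM (SD, n = 3). The log2 fold change of -0.74 had a standard error of 0.459, a 95% interval of -1.79 to 0.31 and an edgeR adjusted p of 0.794. It was -0.35 without SI9 and -0.38 without X23SI4. The SD of log2 CPM within diets was 0.76 for Abca1, larger than in 91.7% of the genes tested.

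Abcg1 encodes an exporter of cholesterol to HDL that is known mainly from macrophages. It was barely expressed, with 24 to 74 counts per library. Its levels were 1.25, 1.77, 1.68 and 3.54 CPM in X17SI4, X32SI4, SI9 and X1SI4, and 0.979, 2.56 and 1.68 CPM in X23SI4, X26SI4 and X10SI4. X1SI4 alone lay above 3 CPM, and the other libraries of the groups intermingled. The log2 fold change was -0.26 (standard error 0.456, 95% interval -1.29 to 0.77), and it changed sign without X1SI4 (0.13) or without X23SI4 (0.05).

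Nr1h3 encodes LXRα, the receptor that senses oxysterols. It lies on the minus strand of chromosome 2 from 91184061 to 91202834. Nr1h3 was at 46.0 CPM in X17SI4, 71.7 in X32SI4, 67.3 in SI9 and 61.0 in X1SI4, against 51.2 in X23SI4, 47.9 in X26SI4 and 60.5 in X10SI4. All low cys libraries lay above X17SI4 and below the other normal cys libraries. The receptor gene had the narrowest span of the 8 genes, 1.56-fold from the lowest to the highest library, and the log2 fold change was -0.21 (standard error 0.169, 95% interval -0.59 to 0.17, edgeR adjusted p 0.804). The Nr1h3 estimate was -0.11 without X32SI4, -0.12 without X26SI4 and -0.07 with scaling by library size alone, and -0.32 without X17SI4 (unadjusted edgeR p 0.0462) and -0.31 without X10SI4. LXRβ, encoded by Nr1h2 and present in most tissues, was at 94.97 ± 6.55 CPM (SD, n = 4) and 87.9 ± 3.91 CPM (SD, n = 3), a log2 fold change of -0.11 (standard error 0.112). Per kilobase of exon, the Nr1h2 to Nr1h3 ratio was 1.18 ± 0.216 (SD, n = 4) in normal cys and 1.25 ± 0.182 (SD, n = 3) in low cys libraries with overlapping ranges.

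**Figure D3:**
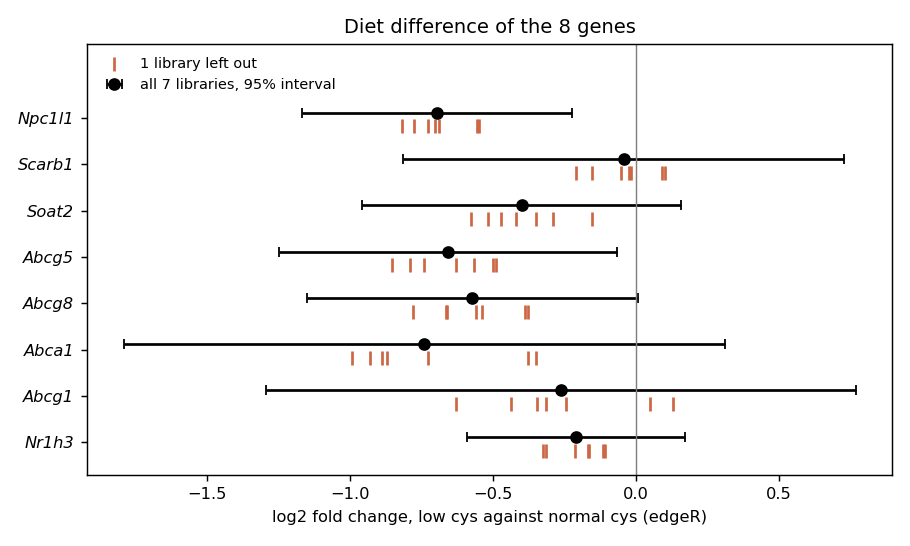
Log2 fold change (low cys against normal cys, edgeR) of each gene with its 95% interval as the black bar and, as short red ticks, the estimate with 1 library left out. The intervals of Npc1l1 (-1.17 to -0.22) and Abcg5 (-1.25 to -0.07) lie below 0, those of the other 6 genes include 0, and the ticks of Abcg1 and Scarb1 lie on both sides of 0.

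The 8 genes differed widely in level. Levels between genes are given in CPM per kilobase of exon, since a longer gene yields more reads. The mean over the 7 libraries was 235 for Npc1l1, 127 for Abcg5, 85.4 for Soat2, 77.7 for Abcg8, 23.04 for Nr1h3, 4.39 for Abca1, 0.473 for Abcg1 and 0.174 for Scarb1. In 7 of 7 libraries each gene lay above the next in this order, with 1 exception: Soat2 lay above Abcg8 in 6 libraries and below it in X1SI4, so these neighbours did not differ beyond their spread. By CPM, Npc1l1 stood above 99.3% of the genes tested and held 0.104% of all counts. The apical proteins of the list (Npc1l1, Abcg5, Abcg8) and Soat2 were thus the abundant members, and the genes known from HDL exchange (Abca1, Abcg1, Scarb1) the scarce ones.

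The same mice stood at the extremes for most of the 8 genes. SI9 was the highest library for 4 genes and X1SI4 for 3, both from the normal cys group. X23SI4 of the low cys group was the lowest library for 6 genes, and X17SI4 of the normal cys group for the other 2. The number of the 8 genes at an unadjusted edgeR p under 0.05 was 1, Npc1l1, without X23SI4, without SI9, without X1SI4 or without X10SI4. In the same fits, 1.71%, 2.73%, 5.65% and 3.44% of all genes tested had such a p. Without X17SI4 the number was 4 of 8, where 11.9% of all genes tested had such a p, so the background moved with the library left out as well. Within libraries, the ratio of importer to exporter, Npc1l1 over Abcg5 per kilobase, was 1.95 ± 0.513 (SD, n = 4) in normal cys and 1.86 ± 0.381 (SD, n = 3) in low cys libraries, with overlapping ranges.

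The 9 enterocyte markers, among them Alpi, Vil1, Apoa4, Fabp2, Sis, Anpep, Cdh1 and Epcam, went in the same direction as the sterol genes. Of these, 9 of 9 had a lower estimate in low cys mice and 0 of 9 an unadjusted p under 0.05, with none at 0 in any library. Their summed level was 35287 to 52695 CPM in normal cys and 20251 to 35412 CPM in low cys libraries. The mean log2 CPM of the 9 markers was 11.57 ± 0.29 (SD, n = 4) and 11.10 ± 0.43 (SD, n = 3), and it was highest in SI9 (11.91) and lowest in X23SI4 (10.61), the same libraries that stood at the extremes of Npc1l1. Set against this mean, an alternative added after the data were seen, the difference in log2 level of low cys minus normal cys was -0.21 for Npc1l1, -0.27 for Abca1, -0.17 for Abcg5 and -0.10 for Abcg8, and the groups overlapped for each gene. It was above 0 for Soat2 (0.042), Abcg1 (0.25), Nr1h3 (0.28) and Scarb1 (0.43), which turned the direction of these 4 genes. Expressed this way, the Npc1l1 groups spanned -1.52 to -1.09 in normal cys and -1.65 to -1.30 in low cys libraries, so the separation seen in CPM was lost. The log2 fold changes of the 9 markers ran from -0.15 for Cdh1 to -0.94 for Fabp2. Cdh1 and Epcam are general epithelial genes, and Apoa4 (-0.78) is also counted in the lipoprotein export list below. The mean of the 9 is thus not a measure of enterocyte content alone. SI9 and X23SI4 also held the extremes of other measures. Summed proximal intestine markers were highest in SI9 (1967 CPM) and lowest in X23SI4 (328 CPM). The mitochondrial percentage of counts was highest in SI9 (10.98) and lowest in X23SI4 (6.08). The TMM factor was lowest in SI9 and highest in X23SI4. Summed distal ileum markers were lowest in X23SI4 (5205 CPM) but highest in X1SI4 (11648 CPM). The part of each in the Npc1l1 difference was not tested.

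**Figure D4:**
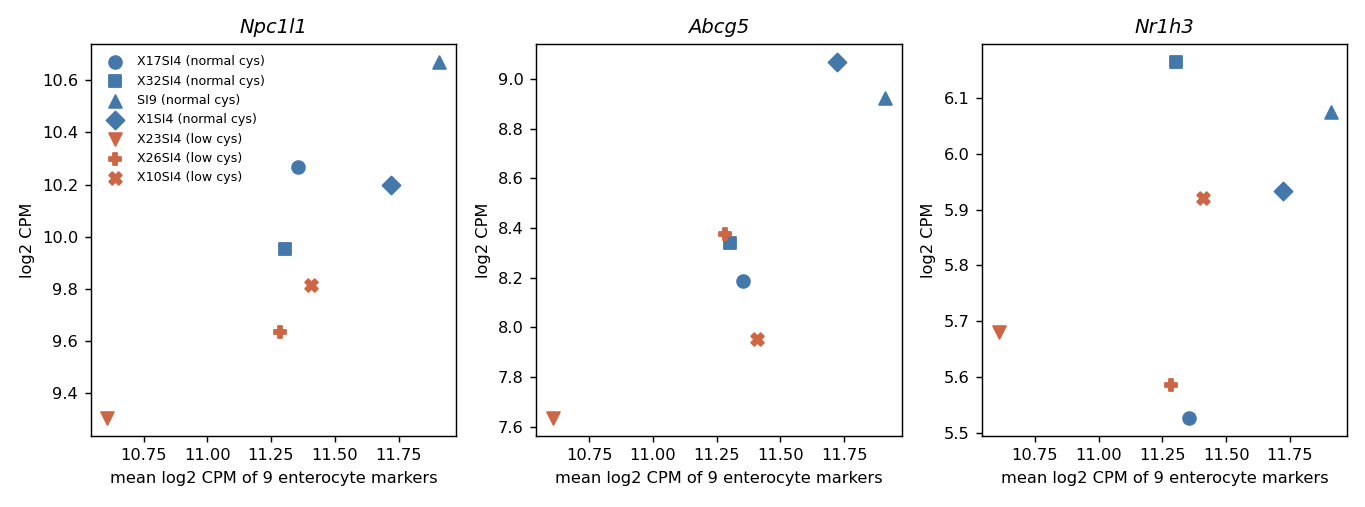
Log2 CPM of Npc1l1, Abcg5 and Nr1h3 (vertical axes) against the mean log2 CPM of 9 enterocyte markers (horizontal axes) in the 7 libraries, with 1 symbol for each library. For Npc1l1 and Abcg5, X23SI4 lies at the lower left (10.61 on the horizontal axis) and SI9 is farthest to the right (11.91), and Nr1h3 is more scattered.

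Markers of other cells in the scrapings also differed in their estimates. The 6 crypt stem and cycling markers all had higher estimates in low cys mice (summed level 61.9 to 238 CPM in normal cys and 140 to 276 CPM in low cys). The same held for 9 of 9 macrophage markers (25.5 to 96.6 against 94.9 to 107 CPM), for the 5 of 6 stroma markers that were tested (4.11 to 8.93 against 11.8 to 18.6 CPM), for 6 of 6 smooth muscle markers (2.34 to 12.1 against 5.63 to 38.2 CPM) and for 5 of 5 endothelial markers (5.78 to 8.57 against 8.96 to 12.4 CPM). At an unadjusted p under 0.05 there were 2 stroma, 2 smooth muscle and 1 B and plasma cell marker, all higher, which was 5 of the 71 marker genes tested (7.04%, against 2.66% of all genes tested in that direction). Lower estimates were found for 6 of 6 T cell markers (98.3 to 168 against 68.0 to 112 CPM), for 4 of 6 tested markers of proximal intestine (797 to 1967 against 328 to 1318 CPM), for 5 of 6 distal ileum markers and for 2 of 2 tested adipocyte markers (37.0 to 71.5 against 22.3 to 41.7 CPM). B and plasma cell markers had 3 higher of 5 (38.8 to 127 against 155 to 230 CPM) and Paneth and goblet markers 3 of 6 (7274 to 12051 against 7705 to 9042 CPM). Of the defining markers, 0 were at 0 in every library, while 1 of stroma, 2 of endothelium and 1 of adipocytes were at 0 in some library. The part of these markers in the differences of the sterol genes was not tested.

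By likeness over the 7 libraries, the genes closest to Npc1l1 were Rcbtb1 (Pearson r of log2 CPM 0.995), Mcfd2 (0.986), which encodes a cargo receptor of the early secretory pathway, and Tmbim1 (0.978). In each of these, too, all low cys libraries lay below all normal cys libraries, as in 3.51% of genes tested. They were chosen for their likeness to Npc1l1, so their separation adds nothing to that of Npc1l1. The nearest of the other 7 sterol genes was Abca1, with an r of 0.83 and rank 389 of 14868. Closest to Abca1 were Acot12 (0.993), which encodes an acyl-CoA thioesterase, Cyb5 (0.982) and Vps37b (0.976), and the nearest sterol gene was Abcg5 with an r of 0.85 and rank 512. Closest to Abcg5 were Mir22hg (0.995), Ccdc120 (0.995) and Gm5540 (0.991). These correlations share the same 7 libraries and were given no p-value, and 131 genes had an r above 0.9 with Npc1l1 and 219 with Abca1.

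Around the 8 genes, 6 lists of sterol-related genes held 69 others, of which 63 were tested. None had an adjusted p under 0.05 in edgeR, and 5 of 63 (7.94%) had an unadjusted p under 0.05, against 5.49% of all genes tested. Of the 5, 4 were lower in low cys mice, and 1 was higher (background 2.66%). The median log2 fold change over the 63 genes was -0.11, with 38 estimates below 0.

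Among 17 tested LXR targets and regulators, 11 had a lower estimate (median -0.09). The LXR target Apoe went the other way, at 43.7 ± 18.3 CPM (SD, n = 4) and 65.6 ± 7.71 CPM (SD, n = 3). Its log2 fold change was 0.59 (unadjusted edgeR p 0.136). Only Apoe in this list had groups that did not overlap, with low cys above, as in 3.32% of genes tested. Gramd1b, which encodes a carrier of plasma membrane cholesterol to the endoplasmic reticulum, was at 164 ± 32.7 CPM (SD, n = 4) and 120 ± 12.2 CPM (SD, n = 3), a log2 fold change of -0.45 (unadjusted edgeR p 0.0280). The most abundant genes of the list were Lpcat3, an LXR target for phospholipid remodelling, with an estimate of -0.40 (log2, standard error 0.200), and the corepressor gene Ncor1, with 0.02 (standard error 0.198). In sterol trafficking and esterification, 9 of 13 were lower (median -0.12). Npc1, whose product moves cholesterol out of lysosomes, was at 62.1 ± 14.6 CPM (SD, n = 4) and 44.5 ± 4.98 CPM (SD, n = 3), with a log2 fold change of -0.48 (unadjusted edgeR p 0.0330). The sterol carrier genes Stard4 and Osbp, the most abundant there, had -0.08 (standard error 0.242) and -0.13 (standard error 0.115).

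Of 9 genes for partners in NPC1L1 endocytosis, 6 were lower (median -0.16), 0 of them at an unadjusted p under 0.05. The most abundant were Anxa2, at 1303 ± 108 CPM (SD, n = 4) and 1037 ± 87.5 CPM (SD, n = 3), and Cdc42, whose estimate was -0.11 (log2, standard error 0.136). In 2 of the 9, Anxa2 and Lima1, all low cys libraries lay below all normal cys libraries, as in 3.51% of genes tested. The Lima1 estimate was -0.24 (log2, standard error 0.147). For HDL, chylomicron and lipoprotein export, 7 of 8 were lower (median -0.60). Apoa1, the acceptor of ABCA1-exported cholesterol, was at 9406 ± 2734 CPM (SD, n = 4) and 5438 ± 1528 CPM (SD, n = 3), a log2 fold change of -0.79 (unadjusted edgeR p 0.0240), and Apob, the scaffold of chylomicrons, had -0.35 (standard error 0.266).

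SREBP2 is the factor that is activated when cell sterol is low, and its target list left out the sterol genes described first. Of the 10 listed targets, 9 had a higher estimate (median 0.15), where 48.8% of the estimates of all genes tested were below 0. Only Idi1 among them had an unadjusted edgeR p under 0.05, and the activity of SREBP2 was not tested. Idi1, an enzyme of the mevalonate pathway, was at 88.3 ± 10.7 CPM (SD, n = 4) and 121 ± 22.7 CPM (SD, n = 3). Its log2 fold change was 0.45 (unadjusted edgeR p 0.0185, adjusted p 0.794), and all low cys libraries lay above all normal cys libraries, as in 3.32% of genes tested. Hmgcs1, the most abundant of the list, had 0.29 (standard error 0.159). Among 6 tested oxysterol and bile acid receptors and enzymes, 4 were lower (median -0.21). Gata6, a GATA factor of the gut epithelium, was at 53.3 ± 5.13 CPM (SD, n = 4) and 41.8 ± 4.68 CPM (SD, n = 3). Its log2 fold change was -0.35 (unadjusted edgeR p 0.0237), and all low cys libraries lay below all normal cys libraries, as in 3.51% of genes tested. The abundant receptor genes Hnf4a and Nr1h4 had -0.20 (standard error 0.163) and 0.44 (standard error 0.295).

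**Figure D5:**
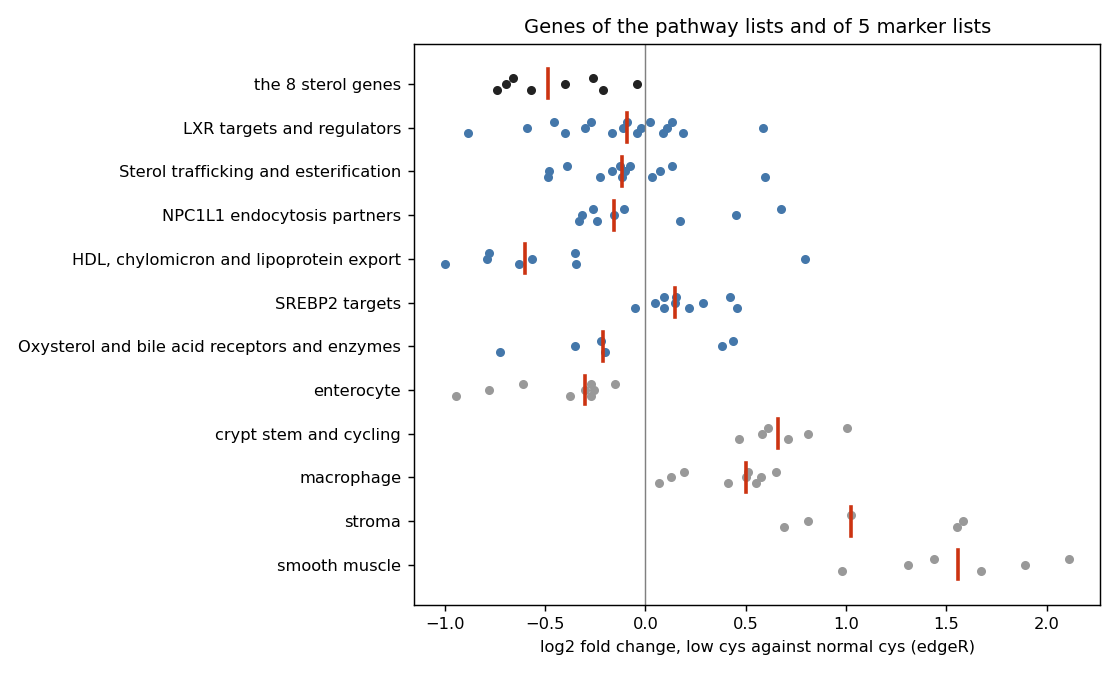
Log2 fold change (low cys against normal cys, edgeR, horizontal axis) of each tested gene in the 8 sterol genes (black), the 6 pathway lists (blue) and 5 marker lists (grey), with a red line at each median. The median was -0.49 for the 8 genes, -0.60 for lipoprotein export and 0.15 for SREBP2 targets, and the enterocyte markers lie below 0 while those of crypt, macrophage, stroma and smooth muscle lie above.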

How the data were processed

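The authors prepared stranded poly(A) libraries from ileal scrapings of 7 mice, trimmed the paired-end reads, removed ribosomal reads, aligned the rest to GRCm38 with STAR and counted them on exons with featureCounts and an Ensembl annotation. They deposited raw counts per gene, without normalization, and tested them with DESeq2. The strand setting and the handling of multi-mapped reads are not given in the sources used here, and neither is a batch. Groups came from the sample labels, and 0 pairs of libraries held identical counts.

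Genes were kept by filterByExpr (minimum count 10, minimum total count 15) in edgeR (version 4.0.16, R 4.3.3), scaled by TMM and compared with the robust quasi-likelihood F-test, without covariates, with Benjamini-Hochberg adjustment over all 14869 genes tested and a threshold of 0.05. Log2 CPM used a prior count of 2. Exon lengths and coordinates came from the deposited table. The alternatives were limma-voom (limma 3.58.1), DESeq2 (1.42.0), other scalings and filters and leaving out each library. Leaving Abcg5 aside, at most 0.897% of the 50-base stretches of each gene's transcripts occurred in another gene, on either strand. That share was reached by Abcg8, with 34 stretches shared with Abcg5. The same 34 stretches thus lie among the 2746 of Abcg5.

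The 8 genes, the 6 pathway and 12 marker lists and the tests were chosen with earlier results of these data known. Besides the 8, the text names in each pathway list every gene with an unadjusted p under 0.05 and the 2 with the highest mean CPM, and for Npc1l1, Abca1 and Abcg5 the 3 genes most correlated over the 7 libraries. Some genes of the lists are counted in their list and not reported here by name. Soat1 and Nr1h2 were added as paralogues after their values were seen. Apoe and Lima1 were added because their groups did not overlap, also after their values were seen. One mouse gave each library. The edgeR p-values set the diet difference against the spread between these mice, estimated with information shared across genes. Standard errors of genes with few counts include counting error.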

Additional observations from a re-analysis of the deposited data

How the results depend on the processing

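Over 14 other analyses, 7 with another tool, scaling or filter and 7 with 1 library left out, the count of sterol genes at an adjusted p under 0.05 stayed at 0, and 2 to 3 of 8 (other settings) or 1 to 4 of 8 (1 library left out) had an unadjusted p under 0.05, where 4.66% to 6.97% and 1.71% to 11.9% of all genes tested did. Npc1l1 was among them in 14 of 14, Abcg5 in 10, Abcg8 in 6 and Nr1h3 in 1, and the adjusted p of Npc1l1 ranged from 0.381 to 1.00. The count of all genes called was 0 in the edgeR test, 16 with DESeq2 and 0 to 1 with 1 library left out (1 without X32SI4). The direction held for Npc1l1, Abca1, Abcg5, Abcg8, Soat2 and Nr1h3 in all 14. Scarb1 turned to a log2 fold change of 0.12 with library-size scaling alone, which moved the median of all genes to 0.15, and ranged from -0.21 to 0.10 with 1 library left out, while Abcg1 ranged from -0.63 to 0.13. Relative to the mean of the enterocyte markers, an alternative added after the data were seen, Soat2 (0.042), Nr1h3 (0.28), Abcg1 (0.25) and Scarb1 (0.43) turned. The cause of these turns was not tested. No paired analysis was possible because the labels give no replicate numbers that join mice across diets. Depth was lowest for Scarb1 (14 to 32 counts per library) and Abcg1 (24 to 74), and for Abcg1 the spread between mice was wide as well, with an SD of log2 CPM within diets larger than in 86.0% of the genes tested.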
